A study of Mus musculus with 32 samples.

Results

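Mitochondrial ribosomal protein genes were followed in the retinas of mice that had been flown in space and of mice kept on the ground. They were taken from the expression table as every gene whose symbol starts with Mrpl or Mrps and a digit and whose mean level over the libraries was 1 FPKM or more (fragments per kilobase of transcript, scaled to sequencing depth). Of 76 genes with such a symbol, 75 passed, out of 14322 genes at that level and 26629 named entries. The gene left out, Mrpl36, was listed at 0 in 11 of 16 libraries and reached at most 0.298 FPKM. All 75 genes were at 1 FPKM or more in each of the 16 libraries. The choice used the level over both groups and not the difference between them.

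The animals were female C57 BL/6J mice, 21 weeks old by their labels, and the labels name no transgene or drug. The spaceflight group lived in orbit for 37 days, and the ground control group was kept in similar housing on Earth. Mice of the spaceflight group were frozen in orbit, and by the authors' account ground control mice were frozen at the same time under the same conditions. Each library came from the retina of 1 eye of 1 mouse. RNA was sequenced for 9 spaceflight and 7 ground control mice, and CpG methylation by reduced representation bisulfite sequencing (RRBS) for 8 and 8. The RNA condition label of mouse M21 says ground control while its source name says flight, and it was counted as spaceflight. The table columns of 6 ground control libraries were taken by their library identifiers, which disagree with the mouse numbers in their titles. By those titles the column of M40 would not be used, and another mouse is named in its place. The main results are also given without M40, which leaves fewer ground controls than the titles name. The titles would also make M32 a left and M33 a right retina, so results by eye rest on the identifiers.

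Mitochondria keep a small genome that encodes core subunits of the respiratory chain, and a ribosome of their own translates it. The ribosomal RNAs of that ribosome (Rnr1 in the small and Rnr2 in the large subunit) come from mitochondrial DNA, whereas its proteins are encoded in the nucleus and imported. Some of these proteins descend from bacterial ribosomal proteins, and others are found only in mitochondria. Photoreceptors are packed with mitochondria and have a high demand for respiration.

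Libraries of both groups held RNA of tissue next to the retina in unequal amounts. All 10 rod markers were present in every library, and their summed level ranged from 15091 to 32088 FPKM in spaceflight and from 20040 to 31331 FPKM in ground control libraries. The 9 lens markers summed to 31753 FPKM in spaceflight mouse M22 and 43961 FPKM in ground control mouse M31, against medians of 66.2 and 305 FPKM. The 6 corneal and basal epithelium markers summed to 1968 FPKM in spaceflight mouse M21, and to at most 89.9 FPKM in ground control libraries. The 10 markers of pigment epithelium and melanocytes summed to 1429 to 5907 FPKM in spaceflight and 2223 to 9094 FPKM in ground control libraries. The 6 suprabasal epidermis markers reached 1318 FPKM in M22 against at most 18.9 FPKM in ground control libraries, and the 6 skeletal muscle markers at most 163 and 93.9 FPKM. The 5 blood markers in the table summed to at most 25.4 and 23.2 FPKM. The mitochondrial rRNAs were by far highest in ground control mouse M40, and Rnr2 was also above every spaceflight library in M32 and M36. The FPKM values come without read totals, but the steps between low values give the relative number of reads behind 1 FPKM. It varied within a factor of 1.62 over the libraries. Relative to M24 it was lowest in M40 (0.633), with M26 next (0.747), and highest in M32 and M36 (1.03).

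The genes spanned a wide range of levels. Mean ground control levels differed by 41.4 times between the highest and the lowest of the 75, around a median of 19.0 FPKM, where the median of all genes tested was 9.36 FPKM. The longest annotated transcripts of the 5 highest had 412 to 689 bases. Mrps21, a small-subunit protein with a bacterial counterpart, led with 153 ± 45.7 FPKM (SD, n = 7) in ground control and 136 ± 19.2 FPKM (SD, n = 9) in spaceflight retinas. Its ground control libraries ran from 105 through a median of 155 to 243 FPKM, and its spaceflight libraries from 111 through 135 to 176 FPKM, so that the groups overlapped almost fully. Mrpl34 (108 ± 19.6 FPKM), Mrpl52 (105 ± 35.6 FPKM), Mrpl42 (85.3 ± 17.7 FPKM) and Mrpl54 (76.6 ± 18.2 FPKM), all of the large subunit, followed in ground control retinas. The ground control ranges overlapped, Mrps21 at 105 to 243, Mrpl34 at 87.4 to 146, Mrpl52 at 72.8 to 159, Mrpl42 at 71.8 to 114 and Mrpl54 at 64.3 to 116 FPKM, and the differences between neighbours in this order were not tested.

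**Figure D1:**
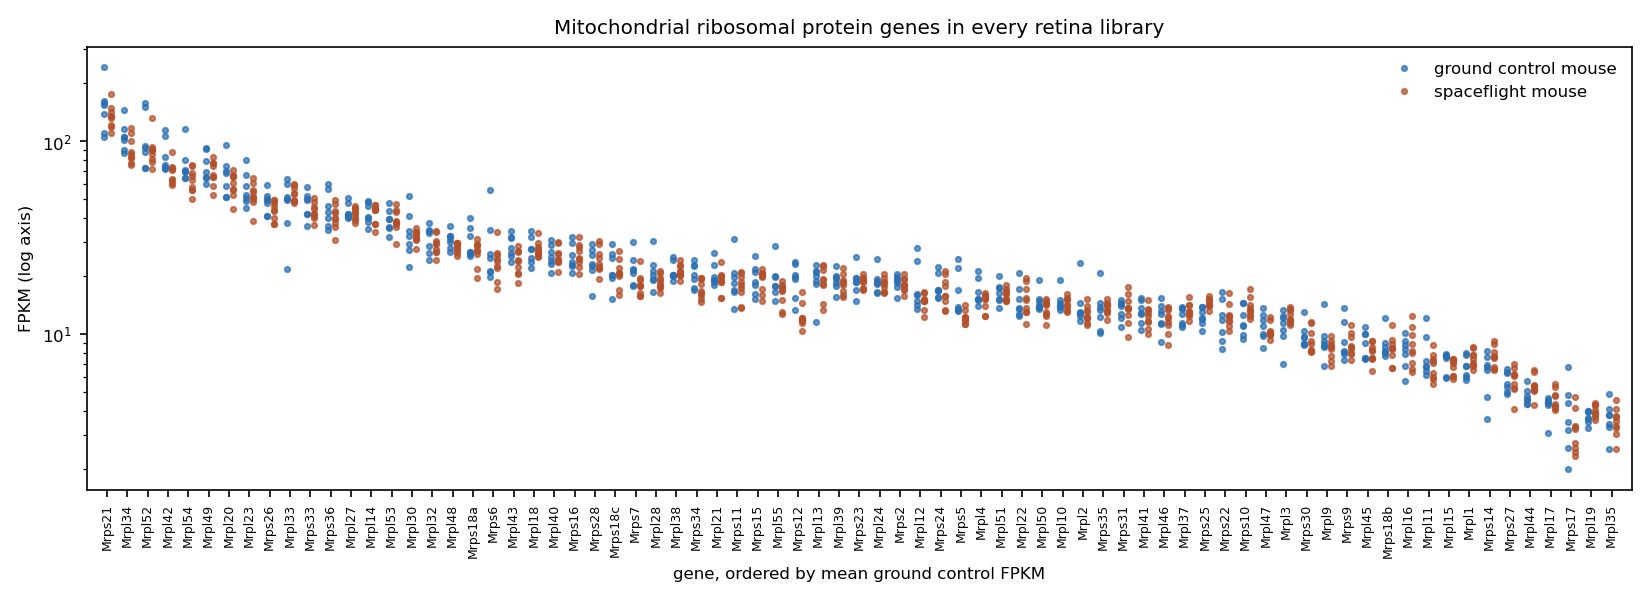
FPKM of each of the 75 genes (log axis) in every library, with 1 point per mouse, blue for the 7 ground control and brown for the 9 spaceflight retinas. Genes are ordered by their mean ground control level, from Mrps21 at 153 FPKM to Mrpl35 at 3.70 FPKM, and the points of both groups overlap for all 75 genes.

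The lowest were Mrpl35 (3.70 ± 0.733 FPKM, SD, n = 7, in ground control retinas), Mrpl19 (3.72 ± 0.281 FPKM), Mrps17 (3.89 ± 1.6 FPKM), Mrpl17 (4.27 ± 0.542 FPKM) and Mrpl44 (4.78 ± 0.499 FPKM). Mrpl44 is a relative of ribonuclease III near the exit of the large subunit, and the other 4 have bacterial counterparts. Ranges of neighbours in this order overlapped, while those of Mrpl19 (3.28 to 4.02 FPKM) and Mrpl44 (4.33 to 5.74 FPKM) did not meet.

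Some symbols do not name the subunit. Mrps18a and Mrps30 are proteins of the large subunit, Mrps18b and Mrps18c belong to the small one, and Mrps36 is now placed in the 2-oxoglutarate dehydrogenase complex and not in the ribosome. In ground control retinas the relatives Mrps18a, Mrps18c and Mrps18b were at 30.3 ± 5.64, 22.3 ± 4.83 and 8.80 ± 1.5 FPKM (SD, n = 7). The spaceflight values were 26.7 ± 3.79, 20.9 ± 3.38 and 8.43 ± 1.36 FPKM (SD, n = 9), in the same order. Mrps30 was at 9.93 ± 1.47 FPKM in ground control and 9.34 ± 1.42 FPKM in spaceflight retinas. Mrps36 was at 45.4 ± 9.79 and 40.8 ± 5.80 FPKM. Mrps36, Mrpl27, Mrpl23 and Mrpl48 have annotated pseudogenes that could share their reads, so their levels are uncertain.

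Spread among mice was moderate. The median coefficient of variation of the 75 genes was 17.1% over ground control and 12.6% over spaceflight libraries, against 21.3% and 14.7% over all genes tested. The largest over ground control libraries were those of Mrps6 (44.1%), Mrps17 (41.1%) and Mrpl52 (34.1%). Mrps6, a small-subunit protein, was at 55.8 FPKM in M31 and at 19.7 to 34.8 FPKM in the other ground control libraries. Its gene shares a start region and strand with Slc5a3, a myo-inositol transporter, so reads of the pair may not be told apart. Mrps17 ran from 1.99 FPKM in M33 to 6.76 FPKM in M40, and Mrpl52 from 72.8 FPKM in M36 to 159 FPKM in M31.

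Summed over the 75 genes, the level ran from 1624 FPKM (M21) through a median of 1880 to 2010 FPKM (M23) in spaceflight retinas. In ground control retinas it ran from 1721 FPKM (M36) through 1955 to 2428 FPKM (M40), with M31 next at 2339 FPKM. The groups overlapped, and the 2 highest libraries were both ground controls. Of the 75 genes, 33 had their highest value of all 16 libraries in M40 and 20 in M31, while 21 had their lowest in M21 and 15 in M32. The ratio of small-subunit to large-subunit FPKM varied little, at 0.464 ± 0.0156 (SD, n = 9) in the flown mice, compared with 0.463 ± 0.0199 (SD, n = 7) in ground control retinas.

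**Figure D2:**
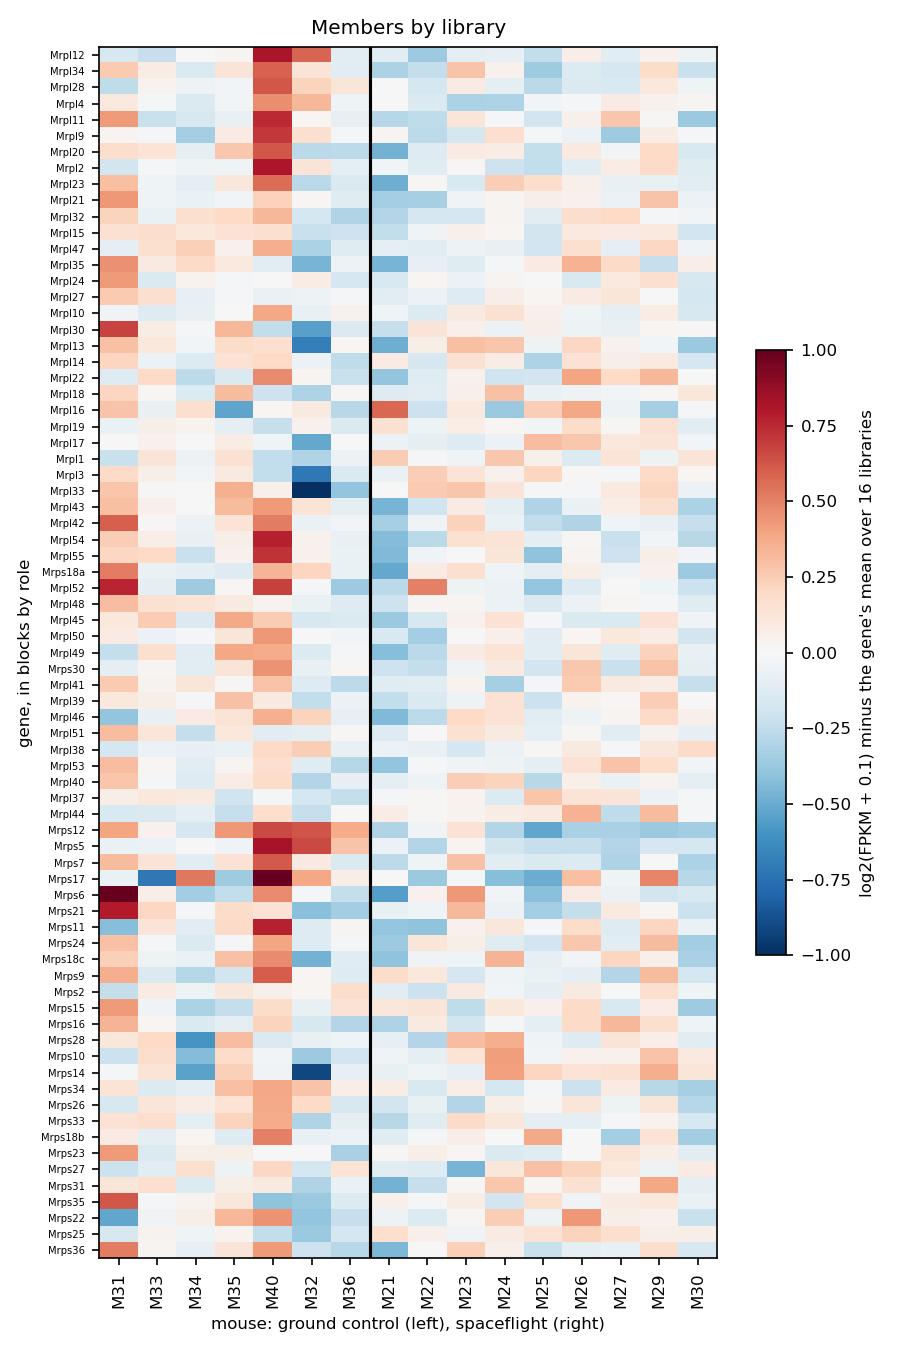
Level of each of the 75 genes (rows, in blocks by role) in each library (columns, ground control left of the line and spaceflight right), as log2(FPKM + 0.1) minus the gene's mean over the 16 libraries. Red columns for M40 and M31 and blue ones for M21 and parts of M32 show libraries in which many of the genes deviate together.

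Expression in spaceflight retinas was compared with ground control retinas over all 14322 genes by limma on log2(FPKM + 0.1), with Benjamini-Hochberg adjustment. A gene was called changed at the study's thresholds, a fold change of at least 1.2, p of at most 0.05 and adjusted p of at most 0.3. The study applied them to another test (Cuffdiff) and another expression filter, so the counts here are not its counts. Mrps12 was the single gene called of the 75, and it was lower after spaceflight. Over all genes tested 21 (0.147%) were called, 7 higher and 14 lower. No gene of the 75 had groups that did not overlap, against 12 (0.0838%) of all genes tested. Of the 75 genes, 68 changed by less than 1.2-fold either way, 6 were lower and 1 was higher by at least that much. For 70 of the 75, the 95% interval of the change lay within 1.5-fold either way.

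Mrps12 is a core protein of the small subunit, the counterpart of a bacterial protein at the decoding centre. In spaceflight retinas it was at 12.1 (M21), 14.6 (M22), 16.5 (M23), 12.2 (M24), 10.4 (M25), 11.9 (M26), 11.9 (M27), 11.5 (M29) and 11.7 FPKM (M30). In ground control retinas it was at 19.7 (M31), 15.4 (M33), 13.3 (M34), 20.2 (M35), 23.7 (M40), 23.1 (M32) and 19.3 FPKM (M36). Of the 9 spaceflight retinas, 7 were below the lowest ground control retina, and the groups overlapped only through M22 and M23 on one side and M33 and M34 on the other. Means were 12.5 ± 1.83 (SD, n = 9) and 19.2 ± 3.77 FPKM (SD, n = 7), a change of -0.60 (SE 0.12, 95% interval -0.85 to -0.35) on the log2(FPKM + 0.1) scale. The fold was 0.660, with an adjusted p of 0.218 by limma, and Mrps12 ranked 6 among all genes tested by p.

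The direction of the Mrps12 difference held in every setting tried, between -0.68 and -0.43, but its call did not. With any single library left out the change was between -0.68 and -0.55 and the adjusted p between 0.152 and 0.482, and 6 of the 16 such fits kept the call (without M22, M23, M31, M33, M34 or M35). Without M40 the change was -0.55 (limma adjusted p = 0.404), with M21 counted as ground control -0.51 (adjusted p = 0.676), and with the eye as a covariate -0.59 (adjusted p = 0.308). Leaving out M21, M22 and M31, the libraries with the most lens or surface epithelium RNA, gave -0.62 (adjusted p = 0.322), so that the difference was as large without them. With eyes assigned by library identifier, it was -0.65 within right eyes (5 against 5) and -0.48 within left eyes (4 against 2). The effects in right and left eyes differed by -0.16 (SE 0.26, limma adjusted p = 0.846 for the interaction). In a bulk tissue, fewer cells with the transcript and less transcript per cell cannot be told apart.

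**Figure D3:**
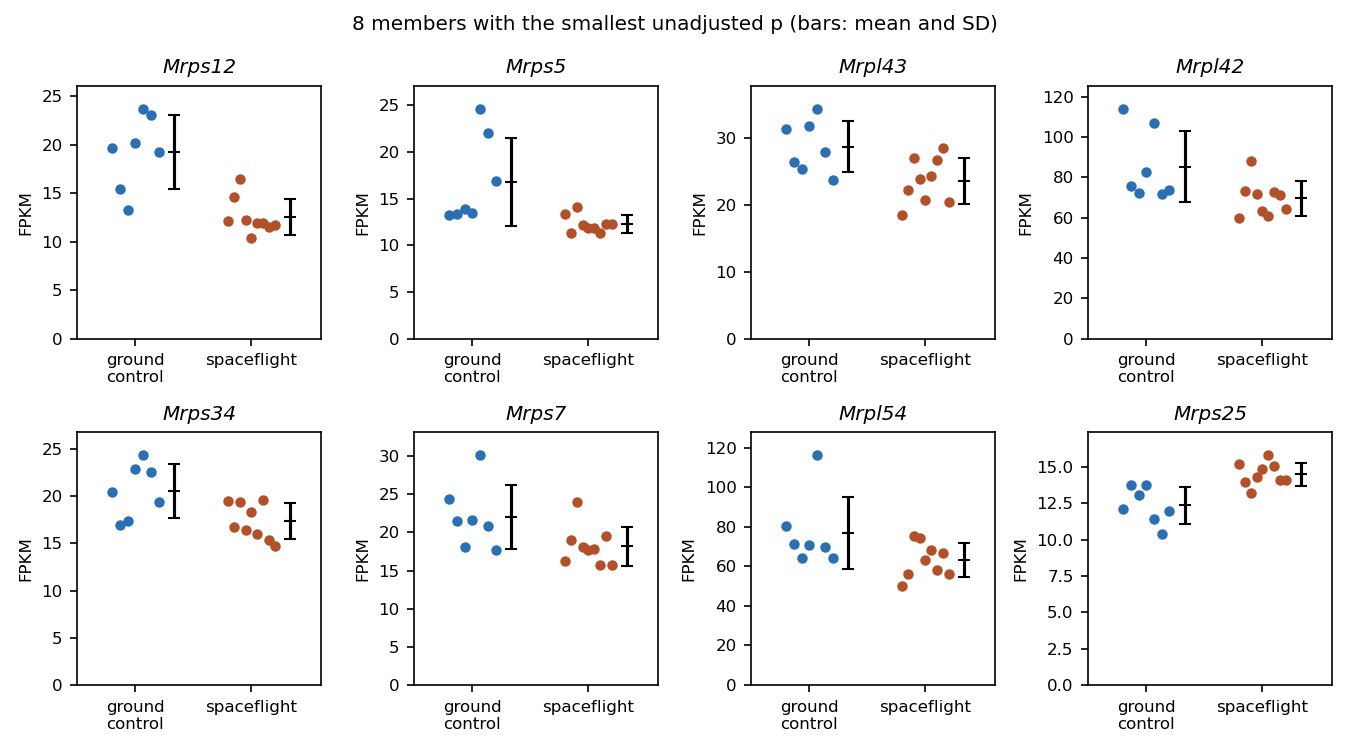
FPKM of the 8 genes with the smallest unadjusted p, with 1 point per mouse and the mean and SD beside the points of each group (7 ground control, 9 spaceflight). Mrps12 has most spaceflight points below all ground control points, Mrps5 has ground control points split between 13.2 to 13.9 and 16.9 to 24.6 FPKM, and Mrps25 is higher after spaceflight.

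Without adjustment, 7 of the 75 genes were lower after spaceflight at p of 0.05 or under and 3 were higher. Over all genes tested 4.96% were lower and 5.88% higher by the same rule. None of the other 9 passed the thresholds for a call, and their values are given as descriptions.

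Among small-subunit proteins with a bacterial counterpart, Mrps5, which lines the path of the mRNA, ranked next after Mrps12 among the lower genes. Its ground control libraries were at 13.2 (M31), 13.3 (M33), 13.9 (M34), 13.5 (M35), 24.6 (M40), 22 (M32) and 16.9 FPKM (M36). Its 9 spaceflight libraries ran from 11.3 through a median of 12.2 to 14.1 FPKM, and 7 of them were below the lowest ground control library. The high ground control values thus lay in M40, M32 and M36, with the other 4 close to the top of the spaceflight range. The change was -0.41 (SE 0.13, limma adjusted p = 0.369). Mrps7, which binds the rRNA of the head of the small subunit, ran from 15.7 through 17.8 to 24 FPKM in spaceflight and from 17.7 through 21.5 to 30.1 FPKM in ground control retinas (-0.26, SE 0.11, limma adjusted p = 0.420). Mrps10 (0.22, limma adjusted p = 0.455) and Mrps14 (0.30, adjusted p = 0.460), of the same class and subunit, had higher means after spaceflight.

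Of the small-subunit genes without a bacterial counterpart, 2 were among the 10. Mrps34 ran from 14.7 through 16.7 to 19.6 FPKM in spaceflight and from 16.9 through 20.4 to 24.3 FPKM in ground control retinas (-0.24, SE 0.09, limma adjusted p = 0.395). Mrps25 went the other way. Its ground control libraries were at 12.1 (M31), 13.8 (M33), 13.1 (M34), 13.8 (M35), 11.4 (M40), 10.4 (M32) and 12.0 FPKM (M36), and its spaceflight libraries ran from 13.2 through 14.3 to 15.8 FPKM. Of the 9 spaceflight retinas, 8 were above the highest ground control retina. The change was 0.24 (SE 0.07, 95% interval 0.09 to 0.38, limma adjusted p = 0.354), a fold of 1.18.

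The 3 genes of the large subunit in this set, Mrpl43, Mrpl42 and Mrpl54, have no bacterial counterpart and were lower on average after spaceflight. Mrpl43 ran from 18.5 through 23.9 to 28.6 FPKM in spaceflight and from 23.8 through 28.0 to 34.4 FPKM in ground control retinas (-0.28, SE 0.10, limma adjusted p = 0.385). Mrpl42 ran from 59.8 through 71.5 to 88.2 and from 71.8 through 75.8 to 114 FPKM (-0.28, SE 0.11, limma adjusted p = 0.409). Mrpl54 ran from 50.1 through 63.2 to 75.3 and from 64.3 through 70.6 to 116 FPKM (-0.26, SE 0.12, limma adjusted p = 0.453). Without M40 the change of Mrpl54 was -0.16 (limma adjusted p = 0.744). The lowest spaceflight library was M21 for all 3 genes, and the highest ground control library was M40 or M31.

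By role, the 28 large-subunit genes with a bacterial counterpart had a median change of -0.055, with none at p of 0.05 or under before adjustment. The 20 large-subunit genes classed as mitochondria-specific had a median of -0.099, with 17 below 0 and 3 at p of 0.05 or under. Mrps18a and Mrps18b were classed as mitochondria-specific, although their relative Mrps18c was classed as having a bacterial counterpart. In the small subunit, the 16 genes with a bacterial counterpart had a median of -0.084 (3 lower and 2 higher at that p) and the 10 mitochondria-specific genes a median of -0.004 (1 lower and 1 higher). Over all 75 genes the median was -0.071, with 55 below 0, and over all genes tested it was -0.001, with 7181 of 14322 below 0.

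**Figure D4:**
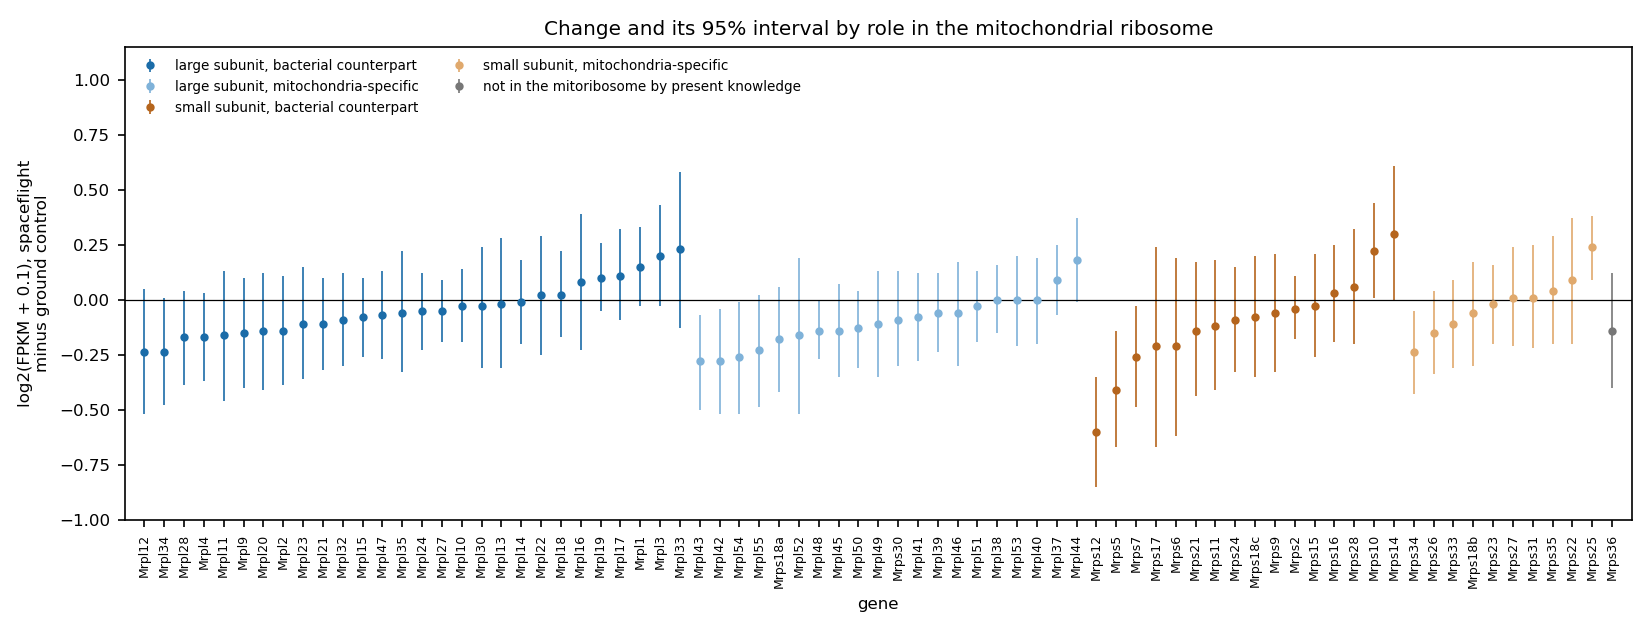
Change of each of the 75 genes with its 95% limma interval, as log2(FPKM + 0.1) in spaceflight minus ground control retinas, in blocks by role in the ribosome. Mrps12 lies lowest at -0.60, and most of the other intervals cross 0.

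The median change of the genes moved with the libraries and the scaling. Without M40 it was -0.036, without M21, M22 and M31 -0.013, and without these 4 libraries it was 0.049, with 2 genes lower and 4 higher at p of 0.05 or under. It was -0.004 within right eyes and -0.17 within left eyes. When the values were rescaled to a total without short structured RNAs, which took 37.1% to 65.4% of FPKM in spaceflight and 51.1% to 67.8% in ground control libraries, the median of all genes tested moved to 0.17. The median of the 75 genes was then 0.10, below that of all genes by the same 0.07 as before. In that scaling 2680 of all genes tested (18.7%) were called, 2629 higher and 51 lower. Of the 75 genes 10 were called, 9 higher and 1 lower, against 1 lower in the main scaling. The lower one was again Mrps12 (-0.43, limma adjusted p = 0.176). Its limma p before adjustment was 0.00953, against 0.000109 in the main scaling, so its adjusted p is not stronger evidence.

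Change also went with base composition and transcript length, both taken from the longest annotated transcript of each gene. Across the 75 genes, Spearman's rho of the change with the GC percent of the transcript was -0.43, and across 13684 annotated genes tested it was -0.51. With transcript length it was 0.33 and 0.13. These are descriptions across genes that share the same 16 libraries. The longest annotated transcript of Mrps12 has 934 bases and 57.2% GC, while that of Mrps25 has 6076 bases and 44.9% GC. The part of GC content in the changes was not tested.

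The starts of many of these genes lie back to back with another gene. Within 1000 bp, 25 of the 75 (33.3%) had a protein-coding neighbour that starts on the opposite strand and runs the other way, against 1430 of 12847 protein-coding genes tested (11.1%). The neighbour of Mrps12 (chromosome 7, 28739641 to 28741821, minus strand, GRCm38) is Sars2, the seryl-tRNA synthetase of mitochondria, on the plus strand. Mrps11 and Mrpl46 share 1 such start region between them, Mrpl43 faces Twnk (the helicase of mitochondrial DNA), Mrpl47 faces Ndufb5 (a subunit of complex I) and Mrps27 faces Ptcd2 (a mitochondrial RNA processing protein).

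The letters between the gene models are shown for 5 such pairs, because they hold the sequence from which both genes start: that of Mrps12, the pair in which both genes are mitoribosomal, and 3 with letters of the ETS or NRF1 motifs described next. They were read from the RefSeq assembly GRCm38.p6, 5′ to 3′ on the strand of the gene named, with the letters of these motifs (ETS, NRF1, YY1, Sp1 and CCAAT, on either strand) in capitals.
Mrps12 with Sars2, chr7:28741822-28741956, minus strand: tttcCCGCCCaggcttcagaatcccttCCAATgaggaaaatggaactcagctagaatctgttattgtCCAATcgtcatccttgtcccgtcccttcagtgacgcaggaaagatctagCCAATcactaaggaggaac
Mrps11 with Mrpl46, chr7:78783090-78783130, plus strand: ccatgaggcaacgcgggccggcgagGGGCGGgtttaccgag
Mrps34 with Eme2, chr17:24895088-24895119, plus strand: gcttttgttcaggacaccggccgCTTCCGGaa
Mrps27 with Ptcd2, chr13:99344679-99344766, plus strand: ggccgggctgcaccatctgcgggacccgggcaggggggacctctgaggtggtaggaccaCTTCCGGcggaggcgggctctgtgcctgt
Mrpl13 with Mtbp, chr15:55557313-55557403, minus strand: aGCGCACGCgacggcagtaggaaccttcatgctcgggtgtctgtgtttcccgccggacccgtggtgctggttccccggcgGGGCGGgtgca

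The 135 bases between Mrps12 and Sars2 hold the letters CCAAT 3 times, at bases 28, 68 and 117, each on the strand of Mrps12, and the Sp1 letters GGGCGG once as their reverse complement at base 5. The runs of Mrps34 and Mrps27 hold the reverse complement of the ETS letters CCGGAAG. That of Mrpl13 holds the NRF1 letters GCGCANGC and the Sp1 letters, and that of Mrps11 with Mrpl46 the Sp1 letters alone. None of the 5 holds the YY1 letters AAGATGGC. RefSeq promoter sequences, from 250 bases before to 50 after a start, were at hand for 66 of the 75 genes. On either strand, ETS letters were in 34.8% of these 66 and 9.12% of 27025 promoters, NRF1 letters in 30.3% and 10.1%, and YY1 letters in 16.7% and 2.88%. Sp1 letters were in 50% and 35.9%, and CCAAT was in 39.4% and 37.9%. The 66 promoters also held more CpG, with a median of 21.0 against 7, so a match is a description of the letters only.

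Of the neighbours across these starts, Sars2 was at 5.03 ± 0.487 FPKM (SD, n = 9) in the flown mice, compared with 5.65 ± 1.54 FPKM (SD, n = 7) in ground control retinas, with ranges of 4.06 to 5.72 and 3.76 to 8.50 FPKM. Its change was -0.13 (SE 0.13, 95% interval -0.41 to 0.15, limma adjusted p = 0.715), and the interval does not reach the change of -0.60 of Mrps12. Without M40 the change of Sars2 was -0.03 (limma adjusted p = 0.961). The difference between the changes of Sars2 and Mrps12 was not tested. Mrpl46 and Mrps11 changed by -0.06 and -0.12 (limma adjusted p = 0.843 and 0.765).

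CpG methylation was then compared over the 1000 bp to either side of each start, from CpGs with 10 reads or more in all 16 RRBS libraries. RRBS mice are named by the titles of their libraries. A ground control name here therefore need not be the mouse of that name in the RNA results. Such CpGs were found for 70 of the 75 genes (all but Mrpl15, Mrpl22, Mrpl24, Mrpl35 and Mrps22). No promoter of these was called changed (adjusted p of at most 0.05 and 10 percentage points in a quasi-binomial test), and none was over all 21665 promoters tested (0%). Methylation of these promoters was low, with a median of 0.405% in ground control retinas against 1.32% over all promoters. Of the 70, 64 (91.4%) were under 5%, against 61.1% of all promoters. Under 5% a fall of 10 points cannot occur, so only a rise could be called there. At any difference, 0 of the 21665 promoters had an adjusted p of 0.05 or under in the quasi-binomial test (lowest 0.587).

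Before adjustment, 5 of the 70 were at p of 0.05 or under, against 5.31% of all promoters. Of these 5, Mrps2, Mrps24, Mrps18c and Mrpl20 were lower and Mrpl16 was higher after spaceflight, and the lowest adjusted p among the 70 was 0.833. With the reads of each group pooled, Mrps24 had the largest difference of the 70, -2.68 percentage points (6.83% against 9.5%). Per mouse it was at 6.96 ± 1.86% (SD, n = 8) in the flown mice, compared with 9.49 ± 2.08% (SD, n = 8) in ground control retinas over 46 CpGs, with 1796 to 3328 reads per library. Mrps2 was at 0.316 ± 0.0934% and 0.544 ± 0.194% over 39 CpGs, and Mrps18c at 0.352 ± 0.116% and 0.533 ± 0.15% over 43 CpGs (SD, n = 8 in each group). None of these 5 genes was among the 10 with an expression difference at the same p. Sets this small often share no gene by chance, and a link between methylation and expression was not tested.

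The promoter of Mrps12 held 34 shared CpGs and was methylated at 2.26 ± 0.891% (SD, n = 8) in the flown mice, compared with 2.57 ± 0.455% (SD, n = 8) in ground control retinas, with an adjusted p of 0.967 in the quasi-binomial test over all promoters. Its libraries ran from 1.49% (M23) to 4.25% (M27) in spaceflight and from 1.87% (M33) to 3.18% (M36) in ground control retinas, on 1793 to 2858 reads each. With positions counted from the start (negative upstream), every CpG from -763 to 298 was under 3% in both groups. The 2 CpGs farthest upstream, at -945 and -992, were at 65.8% and 96.4% in spaceflight and 60.8% and 94.6% in ground control retinas. No CpG between the start and -249 had 10 reads in all libraries, so the bases between Mrps12 and Sars2 shown above were not measured. The start of Sars2 lies 147 bases upstream of that of Mrps12. The CpGs from -249 upstream, with the 2 highly methylated ones, therefore lie past the start of Sars2, in the direction in which Sars2 runs.

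The most methylated promoters were those of Mrps21 (91.4 ± 2.95% in spaceflight and 91.5 ± 2.14% in ground control retinas, SD, n = 8), Mrpl3 (27 ± 5.31% and 29.6 ± 3.99%) and Mrpl42 (10.5 ± 1.93% and 11.1 ± 2.56%). The value of Mrps21, the gene with the highest level, rests on 3 CpGs that lie 910 to 992 bases downstream of its start. In Mrpl3, 4 CpGs from -537 to -462 were at 68.0% to 96.7% in spaceflight retinas, while those from -7 onward were under 2%. The highly methylated CpGs of both lay away from the start.

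**Figure D5:**
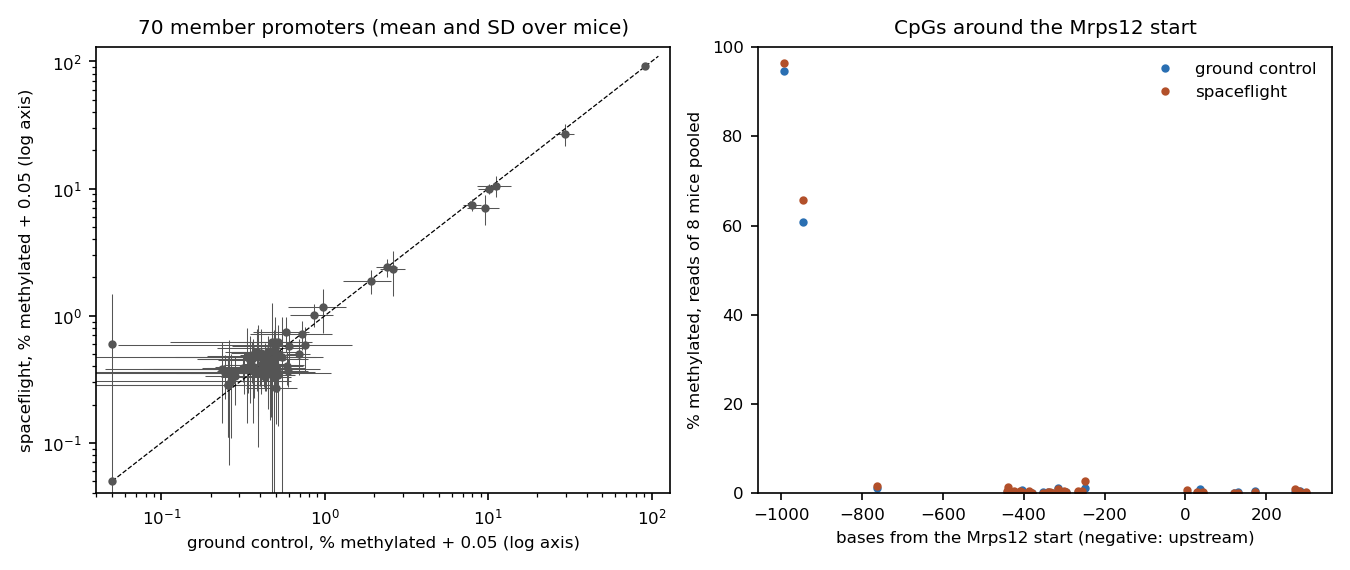
Left, percent methylated (plus 0.05, log axes) of 70 promoters in spaceflight against ground control retinas, as mean and SD over 8 mice in each group, with the line of equal values. Right, percent methylated at each of 34 CpGs by distance from the Mrps12 start, with reads of 8 mice pooled per group, where all but the 2 CpGs at -945 and -992 lie under 3%.

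Genes that work with the mitochondrial ribosome were described in the same way, with none of them called. Of 7 genes listed as mitoribosomal proteins under other symbols, 2 were lower and 2 higher at p of 0.05 or under before adjustment. The median change was -0.078. Lactb, whose place in the ribosome is uncertain, was 1 of the 2 higher genes (0.25, limma adjusted p = 0.453). Gadd45gip1, a protein of the large subunit, was at 20 ± 1.85 FPKM (SD, n = 9) in the flown mice, compared with 22.8 ± 2.38 FPKM (SD, n = 7) in ground control retinas (-0.19, limma adjusted p = 0.409). Aurkaip1, of the small subunit, was at 24.1 ± 1.68 and 28.8 ± 6.21 FPKM (-0.23, limma adjusted p = 0.435, and -0.14 without M40).

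Of 13 translation factors, 1 was lower and 2 were higher at that p (median 0.011). The lower one, Tufm, which brings aminoacyl-tRNA to the ribosome, ran from 22.3 to 26.6 FPKM in spaceflight and from 26.6 to 38.4 FPKM in ground control retinas, so that the groups touched at their edge without overlapping (-0.28, SE 0.08, limma adjusted p = 0.354). Guf1, a GTPase that acts on the ribosome, was at 6.39 ± 0.789 FPKM (SD, n = 9) and 5.0 ± 0.821 FPKM (SD, n = 7) (0.36, limma adjusted p = 0.369).

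Of 23 measured assembly factors and rRNA-modifying enzymes, 2 were higher and none was lower at that p (median 0.078), Tfb1m, which methylates the small-subunit rRNA (0.44, limma adjusted p = 0.386), and Mterfd1 (0.42, adjusted p = 0.432, and 0.28 without M40). Of 17 mitochondrial aminoacyl-tRNA synthetases, 1 was lower and 2 were higher (median 0.026). The lower one was Lars2, for leucine, which ran from 59.9 to 88.4 FPKM in spaceflight and from 60.1 to 324 FPKM in ground control retinas (-0.70, limma adjusted p = 0.395). Wars2, for tryptophan, changed by 0.30 (limma adjusted p = 0.407). Of 12 measured genes of mitochondrial transcription and RNA stability, 1 was lower and 2 were higher (median 0.13), with Mterfd3 at 0.36 (limma adjusted p = 0.369) and Pnpt1, of the RNA degradation machinery, at 0.24 (adjusted p = 0.409).

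The rRNAs of the ribosome varied widely among ground control libraries. Rnr2 ran from 4422 through 5395 to 8360 FPKM in spaceflight and from 4380 through 7665 to 44540 FPKM in ground control retinas, and Rnr1 from 2798 through 3682 to 5039 and from 3276 through 4827 to 22077 FPKM. The highest value of both was that of M40, in which 33 of the 75 genes were also at their highest. For Rnr2, M36 (13082 FPKM) and M32 (10835 FPKM) were also above every spaceflight library. Their Rnr1 values, 5006 and 4369 FPKM, lay within the spaceflight range. Both libraries remain in the fits without M40. The changes were -0.89 (SE 0.36, limma adjusted p = 0.409) for Rnr2 and -0.60 (SE 0.31, limma adjusted p = 0.491) for Rnr1. Without M40 they were -0.53 (SE 0.23, limma adjusted p = 0.674) and -0.27 (SE 0.16, limma adjusted p = 0.758). Library preparation can remove rRNA, so these are amounts left in the libraries and need not be those in the tissue.

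Other families are given for comparison. The 42 measured Nduf genes of respiratory complex I had a median change of -0.076, with 9 lower and none higher at that p. The 95 cytosolic ribosomal protein genes had a median of -0.109, with 10 lower and 2 higher. No gene of either family was called. As with the mitochondrial ribosomal protein genes, whose median was -0.071, these medians lay below that of all genes tested.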

How the data were processed

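RNA was measured in 9 spaceflight and 7 ground control retinas and CpG methylation in 8 and 8. For RNA, the authors trimmed with Trimmomatic, aligned to GRCm38 with TopHat2 and deposited a table of FPKM from Cufflinks; an entry with no name (up to 0.388% of FPKM) was dropped and 2 columns were not used. For RRBS, the authors used Trim Galore 0.4.5 and Bismark and deposited, per CpG cytosine, the coverage as a count of reads and the percent methylated and unmethylated. Those reads summed to 59572205 to 105298542 per library; nothing gives counting error for FPKM. Genes averaging at least 1 FPKM were tested with limma 3.58.1 (R 4.3.3, mean-variance trend) on log2(FPKM + 0.1). Promoters used both strands of each CpG summed, RefSeq starts, and an F-test of a quasi-binomial model, adjusted over all promoters. Both tests were tested on simulated data. Libraries were compared in pairs; log2 values correlated at 0.804 to 0.954, and none was a copy of another. The labels give 1 mouse per library. Members, gene lists and tests were chosen with earlier results of these data known. Genes were named by rule: Mrps12, the 5 highest and 5 lowest levels, the 8 smallest p, called or non-overlapping genes, the 3 largest ground control variations, and symbols with a misleading subunit letter; of promoters the 3 most methylated and 3 smallest p; of other lists the 2 smallest p. Mrps10, Mrps14, Sars2, Mrps11, Mrpl46, Mrpl16, Mrpl20 and Lactb were named after their values were seen. Alternatives changed pseudocount, filter, scaling, eye, M21, trend, coverage, window and single libraries.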

Additional observations from a re-analysis of the deposited data

Results flagged for a closer look

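In 10 of 60 groups examined, the extreme library lay farther from its nearest neighbour, relative to the range of the group, than Dixon's 95% criterion allows. Chance would give about 5% of independent groups. These groups share the same libraries, and some genes were named for their large variation, so that rate is no yardstick here. In ground control retinas, M31 was highest for Mrps21 (243 FPKM, next 162) and Mrps6 (55.8, next 34.8). M40 was highest for Mrpl54 (116 FPKM, next 80.3), Mrps18b (12.1, next 8.98) and Mrps30 (13.0, next 10.4). M32 was lowest for Mrpl17 (3.07 FPKM, next 4.31). In spaceflight retinas, M23 was highest for Mrpl42 (88.2 FPKM, next 73.3) and Mrps7 (24, next 19.6), and M22 for Mrpl52 (133, next 93.8). For promoter methylation, M27 was highest for Mrps18c in spaceflight retinas (0.606%, next 0.387%). No difference of the spaceflight effect between right and left eyes passed the test (the lowest limma adjusted p over the 75 genes was 0.644).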

How the results depend on the processing

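Over 14322 genes 21 were called, 1 of them a member (Mrps12); 10 members were at p of 0.05 or under, and their median change was -0.071. With single libraries left out these ranged from 0 to 1369 genes called (1369 without M31, 538 without M35, 509 without M33, 75 without M23, 11 without M22, M29 or M36, 1 without M34 or M40, and 0 without M21, M24, M25, M26, M27, M30 or M32), 0 to 3 members called, 6 to 12 members at that p, and medians of -0.12 to -0.036. Rescaling without short structured RNAs gave 2680 genes and 10 members called and a median of 0.10. With M21 as ground control 0 genes and 0 members were called and 6 members were at that p; with eye as a covariate 0 and 0; with right eyes alone 2, 0 and 5; with left eyes alone (chosen after seeing the data) 4 and 0. Leaving out M21, M22 and M31 gave 0 and 0, and with M40 as well 0 and 0, 6 members at that p and a median of 0.049; both were chosen after seeing the data. The cause of these shifts was not tested. Pseudocounts of 1 and 0.01, the filters, median centring and the fit without a trend kept the Mrps12 call, and no named gene that was called changed direction. Coverage of 5 or 20, a window of 200 bp and single libraries left out gave 0 promoters called. No paired analysis was possible because the replicate numbers of spaceflight and ground control mice name different animals. FPKM carry no counting error, so what depth limits in expression is unknown; a promoter such as that of Mrpl16 rests on 66 reads in its shallowest library.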
